A study of Sus scrofa with 6 samples.

Results

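The La-related protein LARP6 and 9 genes of collagen processing were followed in the back muscle longissimus dorsi (LD) of 6 Laiwu pigs. The 10 genes were taken by symbol from a transcript table that holds 31908 Ensembl genes, and the FPKM of all transcripts of a gene were summed. They are LARP6, the chaperone gene SERPINH1, the prolyl hydroxylase genes P4HA1 and P4HA2, the lysyl hydroxylase genes PLOD1 and PLOD2, the lysyl oxidase genes LOX, LOXL1 and LOXL2, and the propeptide protease gene BMP1. LARP6 was chosen because it was listed at 0 in 1 group of pigs, so its own values are a description without a test. The other 9 genes were chosen for their place in the same pathway.

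LARP6 is an RNA-binding protein that attaches to a stem-loop in the mRNAs of type I and type III collagen and is known for steering their translation at the endoplasmic reticulum. The new collagen chains are then hydroxylated on proline and lysine, folded into a helix with the help of the chaperone HSP47, trimmed of their propeptides outside the cell and cross-linked by lysyl oxidases. In muscle this work falls mainly to fibroblasts and fibro-adipogenic progenitors of the connective tissue between the fibres, and collagen is the main protein of that tissue.

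All 6 pigs were castrated males of the Laiwu breed, a fatty Chinese breed, and their LD muscle was sampled at the thoracolumbar junction. The S-H group held 3 pigs with an extremely high intramuscular fat (IMF) content (LW63, LW70 and LW119), and the S-L group held 3 pigs with an extremely low IMF content (LW82, LW88 and LW90). No treatment or engineered allele is named for either group, and the pigs differ by the fat content for which they were picked. Each pig gave 1 strand-specific library depleted of ribosomal RNA. Where 3 values of a group are listed below, they stand in the pig order just given.

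FPKM, the fragments per kilobase of transcript scaled to the mapped fragments of the library, allows levels to be compared between genes per length. It gives no counts, so the number of fragments behind a single value is unknown here. The clean reads per library that the paper lists overlapped between the groups. Differences were tested by limma on log2(FPKM + 0.1) over 12748 protein-coding genes with a mean of at least 0.1 FPKM, a scale that understates the change of weakly expressed genes. The thresholds were an unadjusted p below 0.01 with a log2 fold change of 1 or more in either direction. At these thresholds 174 genes passed (1.36% of those tested), 150 higher in S-H (1.18%) and 24 lower (0.188%). Over all tested genes the log2 fold change had a median of 0.21 on FPKM, 0.01 with size factors and 0.35 on TPM, so each fold change below is read against 0.21. LARP6 was kept among the 12748 genes over which shares are given, but no p is read for it. The lowest adjusted p (Benjamini-Hochberg, from limma) of the other genes was 0.079.

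LARP6 (ENSSSCG00000004974, chromosome 1, 168508391 to 168530251 of Sus scrofa 11.1) had 0.694, 2.06 and 1.38 FPKM in the S-H pigs and was listed at 0 in all 3 S-L pigs. The S-H mean was 1.38 ± 0.683 FPKM (SD, n = 3). The groups did not overlap, LW70 was the highest, and the S-H pigs differed among themselves by more than their lowest level. By its mean over the 6 pigs the gene stood at rank 10561 of the 12748 tested genes, a mean that includes the 3 pigs at 0. On TPM the S-H values were 0.852, 2.65 and 2.15, and over size factors they were 0.613, 2.13 and 1.20 FPKM, with the same pig highest and the same pig lowest. No fold is given against a group listed at 0. In these bulk samples, fewer cells that express a gene and less RNA per cell cannot be told apart.

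The table holds 1 transcript of LARP6, LARP6-201, and no assembled transcript lies on it. One Ensembl transcript of another gene overlaps it. This is UACA-209 (chromosome 1, 168355643 to 168530087), a transcript of UACA, which codes for a coiled-coil protein and is not known as a collagen gene. UACA-209 covers 21697 bases, or 99.2%, of the LARP6 span and ends 164 bases short of the LARP6 end. In the RefSeq annotation of the same assembly the UACA gene reaches only from 168353655 to 168453175 and lies 55297 bases away from LARP6 (168508472 to 168530439).

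UACA-209 had 1.11, 0.477 and 0.720 FPKM in the S-H pigs and 0.908, 1.05 and 1.02 FPKM in the S-L pigs. Its means were 0.770 ± 0.321 FPKM in S-H and 0.995 ± 0.0768 FPKM in S-L (SD, n = 3 each), and the groups overlapped because LW63 had the highest value of all. Among the S-H pigs the order of UACA-209 was the reverse of that of LARP6, with LW63 highest and LW70 lowest. Of the level summed over LARP6 and UACA-209, LARP6 took 38.4%, 81.2% and 65.6% in the S-H pigs.

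When LARP6 and UACA-209 were added, the sums were 1.81, 2.54 and 2.10 FPKM in the S-H pigs and 0.908, 1.05 and 1.02 FPKM in the S-L pigs. The means were 2.15 ± 0.367 FPKM in S-H and 0.995 ± 0.0768 FPKM in S-L (SD, n = 3 each). The groups did not overlap, and no pig was at 0. This sum includes the LARP6 values by which the gene was chosen, and in S-L it equals UACA-209 alone. The remaining 10 UACA transcripts summed to 5.32, 5.39 and 8.32 FPKM in S-H and to 8.11, 5.34 and 5.95 FPKM in S-L, so the groups overlapped. UACA as a whole had a log2 fold change of -0.08 (SE 0.27, limma adjusted p = 0.940). The exon structures of the transcript models were not used here, and how the reads of the locus were divided between LARP6-201 and UACA-209 was not tested.

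**Figure D1:**
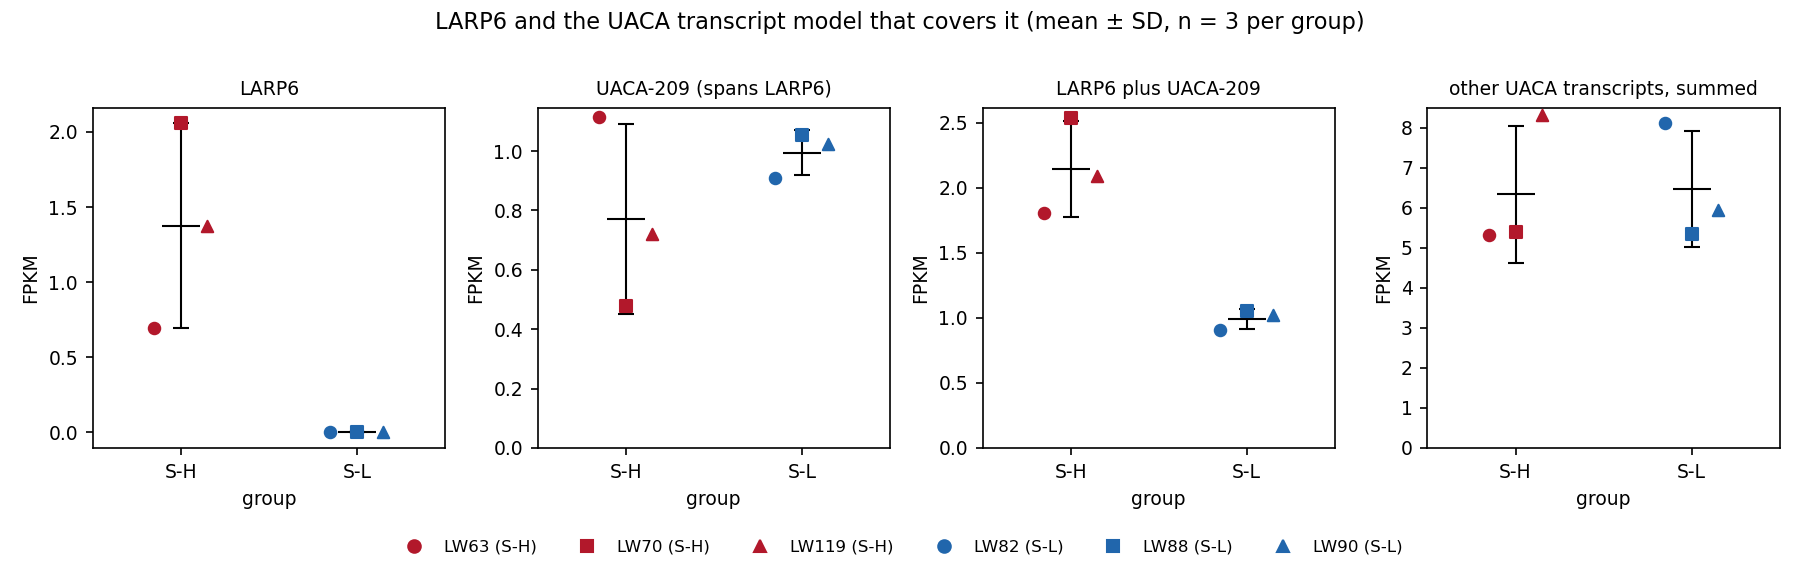
FPKM (vertical axes, linear) of LARP6, of the UACA transcript that spans it, of their sum and of the remaining UACA transcripts, in S-H (red) and S-L (blue) pigs, with 1 symbol per pig and the mean ± SD (n = 3 per group) as black lines. LARP6 lies between 0.694 and 2.06 in S-H and at 0 in S-L, while the sum with UACA-209 lies between 1.81 and 2.54 in S-H and between 0.908 and 1.05 in S-L.

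Only 3 of the 12748 tested genes were above 0 in every S-H pig and listed at 0 in every S-L pig. Beside LARP6 they were ENSSSCG00000038141, with an S-H mean of 0.514 FPKM, and ASPG, an asparaginase gene, with an S-H mean of 0.363 FPKM. The reverse pattern was found in 2 genes, ACBD7 with an S-L mean of 0.704 FPKM and MIXL1 with an S-L mean of 0.390 FPKM. LARP6 thus had the highest level of the 5 genes with a full split into 0 and above 0.

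Zeros in 3 or more pigs were found in 25 tested genes (0.196%), and in 2 of the 1132 genes with a mean between 0.5 and 1 FPKM. LARP6 itself is among the genes of both counts. LARP6 is 1 of 1625 tested genes that lie to at least 50% within the span of a transcript of another gene. Zeros in 3 or more pigs were found in 5 of these 1625 genes (0.308%) and in 20 of the 11123 others (0.180%). LARP6, which was chosen for its zeros, and ENSSSCG00000038141 are among these 5 genes, so the shares are only a description. ASPG, ACBD7 and MIXL1 are not covered in this way.

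None of the genes around LARP6 was above 0 in every S-H pig and at 0 in every S-L pig. LRRC49, the nearest gene on the far side from UACA, had 0.0508, 0.0790 and 0.294 FPKM in S-H and 0.0431, 0.0920 and 0.0796 FPKM in S-L (log2 fold change 0.37, SE 0.48, limma adjusted p = 0.834). THSD4, a gene of an extracellular protein of microfibrils, had 4.03, 0.882 and 2.38 FPKM in S-H and 5.03, 4.05 and 1.10 FPKM in S-L (log2 fold change -0.45, SE 0.62, limma adjusted p = 0.844). Both overlapped between the groups. The other 6 of the 9 annotated genes within 250 kb of LARP6 were not among the tested genes, and all 6 overlapped between the groups or were at 0 in every pig.

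Among the genes whose log2(FPKM + 0.1) followed LARP6 most closely over the 6 pigs were DHDH (Pearson r = 0.994), ACOT7 (0.990), YBX1 (0.989) and BMERB1 (0.987). YBX1, an RNA-binding protein, had 280.4, 305.6 and 305.9 FPKM in S-H and 249.99, 249.8 and 251.3 FPKM in S-L. DHDH, a dehydrogenase, had 9.19, 9.81 and 9.48 FPKM in S-H and 6.86, 6.95 and 6.92 FPKM in S-L. These genes share a tight S-L group and a separate S-H group with LARP6, and none of these 4 is a collagen-processing gene.

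The same r was computed for the collagen-processing genes. It restates the split of the groups by which LARP6 was chosen and is given as a description. The r with LARP6 over the 6 pigs was 0.69 for BMP1, 0.53 for SERPINH1, 0.43 for LOXL2, 0.40 for PLOD1, 0.32 for LOXL1, 0.18 for P4HA2, 0.08 for P4HA1, 0.02 for PLOD2 and -0.60 for LOX. Of all tested genes, 14.4% had a higher r with LARP6 than BMP1 had, and 95.9% had a higher r than LOX. All of these correlations rest on the same 6 libraries and on the same gap between the groups.

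None of the other La-related genes that were matched was listed at 0, and LARP4B was not matched. The 5 others that were tested, LARP1, LARP1B, LARP4, LARP7 and SSB, bind other RNAs and had log2 fold changes between -0.22 and 0.04, all below the median of all genes. LARP1, which binds mRNAs of the translation machinery, had 10.2, 7.36 and 10.5 FPKM in S-H and 12.3, 10.2 and 8.94 FPKM in S-L. LARP4, a poly(A)-binding protein, had 31.5, 18.3 and 26.9 FPKM in S-H and 29.4, 38.6 and 21.7 FPKM in S-L. In each of the 5 genes the groups overlapped and no unadjusted p was below 0.05.

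The transcripts of proteins known to work with LARP6 on collagen mRNAs were also measured. VIM, which codes for the filament protein vimentin, had 170.5, 120.7 and 191.4 FPKM in S-H and 85.2, 99.1 and 85.4 FPKM in S-L. The S-H pigs all lay above the S-L pigs, with a log2 fold change of 0.82 (SE 0.26, limma adjusted p = 0.579), which did not reach the fold threshold, and with size factors the change was 0.60. Vimentin is made by many non-muscle cells of the tissue. STRAP, an adaptor protein, had a log2 fold change of 0.29 (adjusted p = 0.721), the helicase DHX9 of 0.07 (adjusted p = 0.956) and the prolyl isomerase FKBP3 of 0.00 (adjusted p = 0.999), all by limma and all with overlapping groups. MYH9, a non-muscle myosin, was not among the tested genes and had 16.1, 15.6 and 30.6 FPKM in S-H and 15.1, 18.2 and 13.03 FPKM in S-L.

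The collagen mRNAs that LARP6 is known to bind were high in LW119 and LW63 and overlapped between the groups. COL1A1 had 20.3, 9.99 and 28.1 FPKM in S-H and 16.7, 16.5 and 8.81 FPKM in S-L (log2 fold change 0.41, SE 0.40, limma adjusted p = 0.770). COL1A2 had 74.7, 35.6 and 96.9 FPKM in S-H and 46.4, 55.2 and 37.1 FPKM in S-L (0.48, SE 0.36, limma adjusted p = 0.706). COL3A1 had 219.6, 113.2 and 326.5 FPKM in S-H and 123.9, 156.4 and 95.3 FPKM in S-L (0.71, SE 0.38, limma adjusted p = 0.627). LW70, the pig with the highest LARP6, had the lowest sum of the 3 collagens among the S-H pigs (158.8 FPKM, against 314.6 in LW63 and 451.4 in LW119), and that sum lay within the S-L range of 141.2 to 228.1 FPKM.

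Among the 9 processing genes, 0 passed the thresholds (1.36% of all tested genes passed) and 0 had an unadjusted p below 0.05 (8.15% of all tested genes). In 8 of the 9 the log2 fold change was above 0, as it was in 74.1% of all tested genes, and in 5 it was above the median of all genes. The median of the 9 was 0.30 on FPKM and 0.08 with size factors. In 1 of the 9, BMP1, the S-H pigs all lay above the S-L pigs, a pattern found in 13.1% of all tested genes.

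SERPINH1 codes for HSP47, the chaperone that binds the folded collagen helix in the endoplasmic reticulum. It lies on chromosome 9 (9783036 to 9794483) and was by far the most abundant of the 10 genes, with 56.8, 37.8 and 124.1 FPKM in S-H and 30.1, 42.1 and 43.1 FPKM in S-L. LW119 stood well above the other 5 pigs, and LW70 lay within the S-L range. The means were 72.9 ± 45.4 and 38.4 ± 7.22 FPKM (SD, n = 3 each), and the log2 fold change of 0.76 (SE 0.40, limma adjusted p = 0.620) was 0.29 without LW119 and 1.14 without LW70, where its unadjusted p was below 0.05.

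P4HA1 and P4HA2 code for catalytic subunits of prolyl 4-hydroxylase, which makes the hydroxyproline that keeps the collagen helix stable. P4HA1 (chromosome 14, 75825140 to 75918917) had 10.2, 8.77 and 17.4 FPKM in S-H and 7.59, 9.13 and 18.4 FPKM in S-L. Each group held 1 high pig, LW119 in S-H and LW90 in S-L, and the means were 12.1 ± 4.61 and 11.7 ± 5.84 FPKM (log2 fold change 0.09, SE 0.38, limma adjusted p = 0.947). P4HA2 (chromosome 2, 134502210 to 134595430) had 8.63, 7.33 and 21.6 FPKM in S-H and 10.2, 8.72 and 10.4 FPKM in S-L.

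In P4HA2 only LW119 lay above the S-L pigs, and LW63 and LW70 lay below all 3 of them. The means were 12.5 ± 7.90 and 9.77 ± 0.909 FPKM (log2 fold change 0.19, SE 0.38, limma adjusted p = 0.899), or -0.29 on the log2 scale without LW119. With size factors both genes had a log2 fold change below 0, -0.12 for P4HA1 and -0.03 for P4HA2.

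PLOD1 and PLOD2 code for lysyl hydroxylases, and PLOD2 acts on the telopeptides, where cross-links start. PLOD1 (chromosome 6, 71988459 to 72021804) had 10.3, 11.7 and 23.4 FPKM in S-H and 10.3, 13.8 and 10.6 FPKM in S-L. PLOD2 (chromosome 13, 86401244 to 86513105) had 9.11, 5.86 and 16.0 FPKM in S-H and 9.18, 7.87 and 10.04 FPKM in S-L. In both genes LW119 was above the other 5 pigs, and the remaining S-H pigs were within or below the S-L range. The log2 fold changes were 0.30 for PLOD1 (SE 0.33, limma adjusted p = 0.796) and 0.08 for PLOD2 (SE 0.35, limma adjusted p = 0.954). Without LW119 they were -0.06 and -0.29, and with size factors PLOD2 was at -0.14.

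BMP1 codes for the protease that removes the C-terminal propeptide of procollagen and also activates lysyl oxidase. BMP1 (chromosome 14, 6443912 to 6489064) had 4.18, 4.27 and 8.82 FPKM in S-H and 3.42, 3.90 and 2.14 FPKM in S-L. The groups did not overlap, but the gap between the highest S-L pig and the lowest S-H pig was small and LW119 was high. The means were 5.76 ± 2.66 and 3.15 ± 0.907 FPKM, with a log2 fold change of 0.80 (SE 0.36, limma adjusted p = 0.607) that was 0.45 without LW119 and 0.59 with size factors. Its unadjusted p lay close to 0.05 and was below it in 6 of 17 alternative settings, among them those without LW63, LW70 or LW88.

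The lysyl oxidases oxidise lysine and hydroxylysine so that collagen and elastin can cross-link. LOX (chromosome 2, 125593116 to 125607594), the founding member, had 12.9, 5.88 and 5.57 FPKM in S-H and 9.15, 10.5 and 9.73 FPKM in S-L. LW63 was the highest of the 6 pigs, while LW70 and LW119 were the lowest, so that the S-L pigs lay between the S-H pigs. The means were 8.10 ± 4.12 and 9.80 ± 0.685 FPKM, and LOX was the only one of the 9 genes with a negative log2 fold change (-0.38, SE 0.33, limma adjusted p = 0.738). It was -0.60 with size factors and -0.76 without LW63, where its unadjusted p was below 0.05.

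LOXL1 (chromosome 7, 59481412 to 59505149), known for its role in elastic fibres, had 3.27, 2.15 and 7.64 FPKM in S-H and 2.06, 5.50 and 1.33 FPKM in S-L. LOXL2 (chromosome 14, 7435863 to 7540704), which also cross-links basement membrane collagen, had 7.94, 5.03 and 16.1 FPKM in S-H and 3.98, 8.78 and 4.56 FPKM in S-L. In both genes LW119 was highest and the S-L pig LW88 was next. The log2 fold changes were 0.59 for LOXL1 (SE 0.55, limma adjusted p = 0.761) and 0.66 for LOXL2 (SE 0.44, limma adjusted p = 0.672). Without LW119 they were 0.09 and 0.22. LOXL1 was at 1.15 without LW88, and LOXL2 was at 1.04 without LW70, each with an unadjusted p below 0.05.

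**Figure D2:**
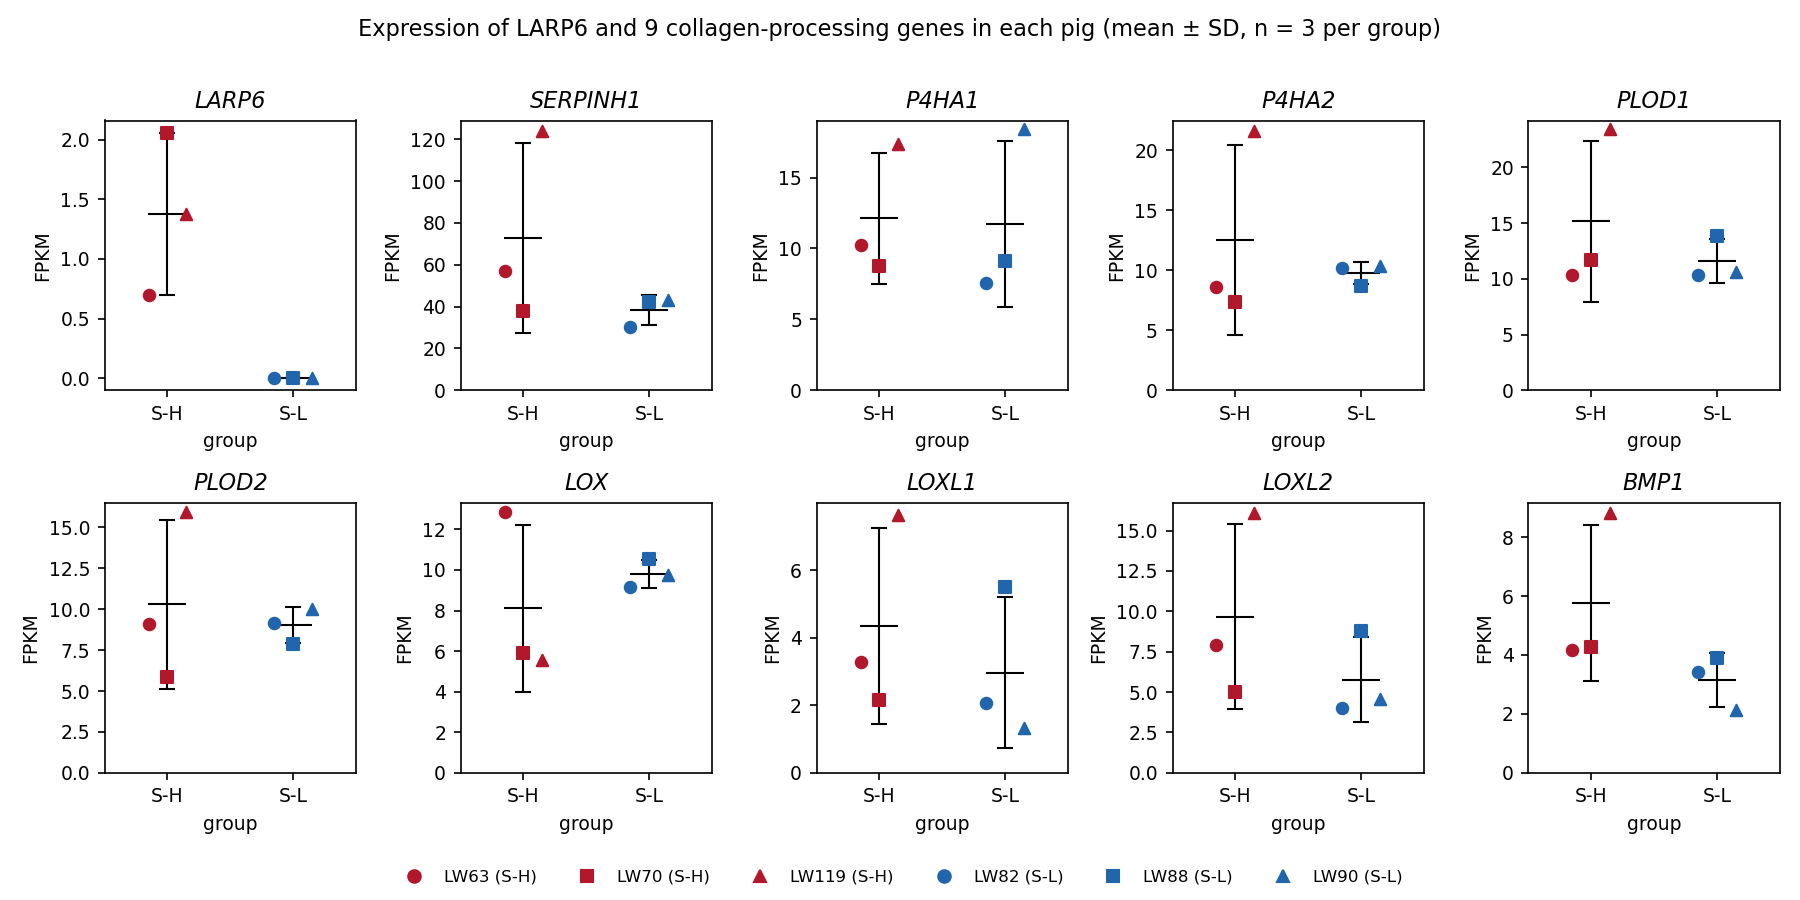
FPKM (vertical axes, linear) of LARP6 and the 9 collagen-processing genes in the S-H (red) and S-L (blue) pigs, with 1 symbol per pig and the mean ± SD (n = 3 per group) as black lines. LW119, the red triangle, is the highest pig in 7 of the 9 processing genes, while LOX runs the other way, with 5.57 FPKM in LW119 and 12.9 FPKM in LW63.

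In the S-L pigs, where LW119 plays no part, the order of the levels was SERPINH1 (38.4 FPKM), P4HA1 (11.7), PLOD1 (11.6), LOX (9.80), P4HA2 (9.77), PLOD2 (9.03), LOXL2 (5.77), BMP1 (3.15), LOXL1 (2.96) and LARP6 at 0. SERPINH1 stood above all others in each S-L pig. Each of the 5 genes from P4HA1 to PLOD2 overlapped with its neighbours in this order, as did PLOD2 with LOXL2 and BMP1 with LOXL1, while all 3 LOXL2 values lay above those of BMP1.

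The 10 genes are spread over 32 of the 83119 transcripts of the table. LARP6, SERPINH1, LOX and BMP1 have 1 transcript each. The 6 genes with more than 1 transcript have 26 transcripts above 0 in at least 1 pig, while P4HA1-202 and P4HA1-206 were at 0 in all 6 pigs. The assembled transcripts are counted within the sums, and those with OT in their names are named for an overlap with the gene.

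P4HA1-201 carried most of the P4HA1 level, 68.7% ± 4.0 in S-H and 73.6% ± 8.36 in S-L (SD, n = 3 each). P4HA1-205 took 20.6% in LW70 and 10.9% in LW88 but at most 3.42% in the other 4 pigs. P4HA2-201 carried 59.1% ± 10.3 in S-H and 65.3% ± 8.12 in S-L, and PLOD1-201 carried 68.6% ± 3.17 and 67.9% ± 5.60. The main transcripts of these 3 genes thus kept similar shares, with overlapping groups.

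PLOD2 was divided over 8 transcripts, and its shares moved more. PLOD2-204 took 41.0%, 19.8% and 44.4% in the S-H pigs and 19.9%, 15.2% and 25.4% in the S-L pigs, so that LW70 lay with the S-L pigs. The assembled transcript TCONS_00076830 was steady, at 22.8% to 25.4% in all 6 pigs. PLOD2-202 took 16.3% in LW70 and 15.1% in LW88 and at most 2.73% in the others. The pigs with the raised share of PLOD2-202 were the same pigs as those with the raised share of P4HA1-205.

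Of the 26 transcripts, 3 had shares that did not overlap between the groups (8.47% of 37175 such transcripts of all tested genes), and they are named here because of their values. PLOD2-OT1 took 4.92%, 6.99% and 8.72% of the PLOD2 level in S-H and 11.8%, 11.7% and 14.5% in S-L. LOXL2-201 took 78.9%, 88.1% and 80.0% of the LOXL2 level in S-H and 71.9%, 78.8% and 71.0% in S-L, and LOXL2-202 took the rest. The LOXL2 shares of LW63 and LW88 almost touched. LOXL1-OT1 took at most 15.1% of LOXL1, in LW82.

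**Figure D3:**
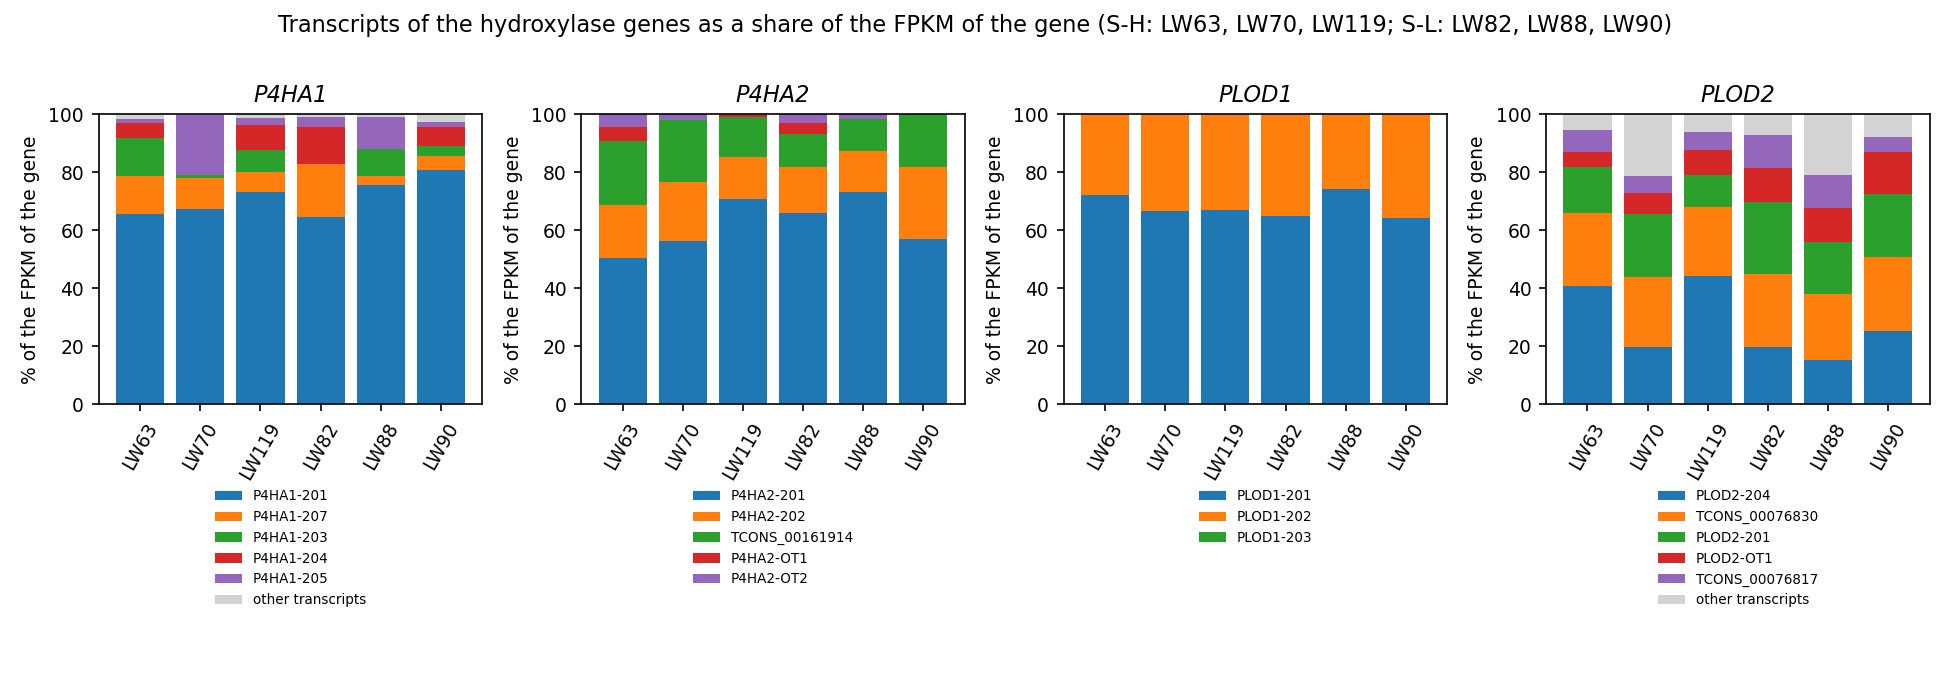
Share of each transcript in the summed FPKM of its gene (vertical axes, percent, stacked to 100%) for P4HA1, P4HA2, PLOD1 and PLOD2 in each pig, with the most abundant transcripts in colour and the rest in grey. P4HA1-205 is widest in LW70 (20.6%) and LW88 (10.9%), and PLOD2-204 ranges from 15.2% in LW88 to 44.4% in LW119.

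The 9 genes were set among 44 collagen-processing genes, of which 40 were found and 39 were tested. None of the 39 passed the thresholds by limma, and 5 had an unadjusted p below 0.05, all higher in S-H (7.08% of all tested genes were higher at that p, and 1.07% lower). Adjusted over all genes, the lowest p was 0.579. The log2 fold change was above 0 in 32 of the 39 (74.1% of all tested genes) and above the median of all genes in 26, with a median of 0.40 on FPKM and 0.21 with size factors. In 8 of the 39 the S-H pigs all lay above the S-L pigs (13.1% of all tested genes), and in 0 they all lay below (1.7% of all tested genes). With size factors 3 of the 39 had a p below 0.05 (3.56% of all tested genes were higher at that p).

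Those 3 were P3H3, P3H4 and CRTAP, all from the list named prolyl 3-hydroxylation. CRTAP is known to form a complex with the enzyme P3H1 and cyclophilin B, whose groups overlapped, and P3H3 and P3H4 are known from lysyl hydroxylation. P3H3, which is named for its p, had 2.78, 2.25 and 4.43 FPKM in S-H and 1.59, 1.83 and 0.855 FPKM in S-L (log2 fold change 1.10, SE 0.37, limma adjusted p = 0.579). P3H4, a partner of the lysyl hydroxylase LH1 without enzyme activity, had 4.16, 3.52 and 4.65 FPKM in S-H and 2.64, 2.50 and 1.67 FPKM in S-L (0.84, SE 0.28, limma adjusted p = 0.579). CRTAP had 3.97, 3.33 and 4.50 FPKM in S-H and 2.19, 2.91 and 1.85 FPKM in S-L (0.75, SE 0.28, limma adjusted p = 0.579). In these 3 genes LW63 and LW70 also lay above all S-L pigs, which was not so in most of the 9 genes above.

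Of the remaining 3 genes of the 6 in that list, P3H1 and PPIB (cyclophilin B) were at 0.57 (adjusted p = 0.617) and 0.67 (adjusted p = 0.637) and P3H2 at -0.28 (adjusted p = 0.779), all by limma and all with overlapping groups. The median of the list was 0.71 on FPKM and 0.50 with size factors, beside 0.21 and 0.01 for all tested genes. P3H4 had an unadjusted p below 0.05 in each setting tried, including each pig left out in turn.

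In the other lists the values were nearer to those of all genes. For prolyl 4-hydroxylation (4 genes) the median log2 fold change was 0.14, and P4HB, the subunit shared with protein disulfide isomerase, had 140.6, 103.5 and 151.2 FPKM in S-H and 73.4, 156.0 and 78.0 FPKM in S-L (0.43, SE 0.33, limma adjusted p = 0.706). For lysyl hydroxylation and glycosylation (7 genes) the median was 0.30, with FKBP10, the isomerase that works with PLOD2, at 0.82 (SE 0.44, adjusted p = 0.627). For procollagen export (6 genes) the median was 0.29, and MIA3, the export receptor TANGO1, was at -0.05 (SE 0.24, adjusted p = 0.960). None of these 17 genes had an unadjusted p below 0.05 (8.15% of all tested genes).

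The chaperone list (5 genes tested) had a median of 0.55 and the propeptide list (6 genes tested) a median of 0.36. FKBP9, a prolyl isomerase, had 12.9, 11.4 and 17.3 FPKM in S-H and 9.41, 10.03 and 8.41 FPKM in S-L (log2 fold change 0.55, SE 0.25, limma adjusted p = 0.607). SPARC, a matrix protein that binds collagen, had 183.5, 134.0 and 186.2 FPKM in S-H and 122.0, 121.6 and 110.3 FPKM in S-L (0.49, SE 0.24, limma adjusted p = 0.617). In both genes the S-H pigs all lay above the S-L pigs. PCOLCE, which speeds up the cleavage by BMP1, had 21.4, 14.1 and 41.5 FPKM in S-H and 11.11, 16.2 and 9.88 FPKM in S-L (0.93, SE 0.38, limma adjusted p = 0.606), with LW88 above LW70. Without LW70 PCOLCE passed the thresholds, the only gene of the 39 to do so in any setting.

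The 5 lysyl oxidases had a median of 0.59 on FPKM and 0.38 with size factors. LOXL3 (0.59, SE 0.40, limma adjusted p = 0.676) and LOXL4 (0.56, SE 0.56, limma adjusted p = 0.775) were weakly expressed, with S-H means of 1.05 and 1.86 FPKM. LOX was the only lysyl oxidase with a negative log2 fold change.

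**Figure D4:**
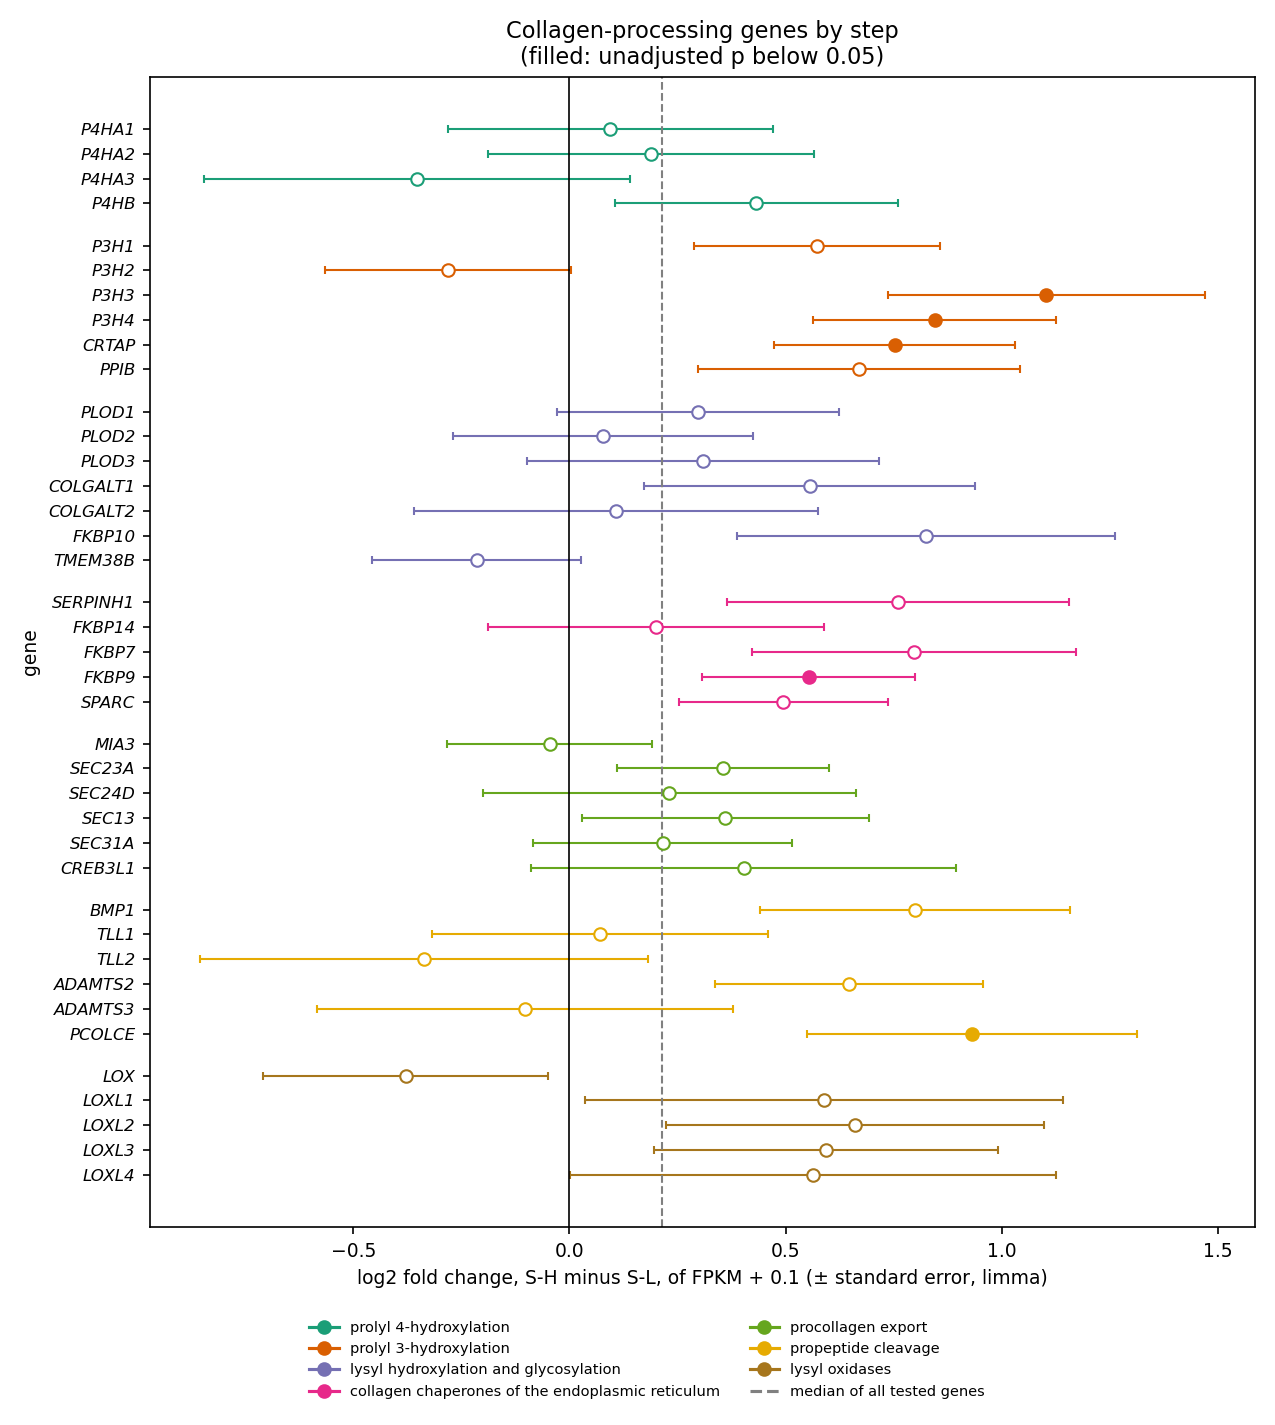
Log2 fold change of FPKM + 0.1, S-H minus S-L (horizontal axis), of 34 collagen-processing genes and the 5 lysyl oxidases, with bars for the limma standard error (n = 3 pigs per group), grouped and coloured by step. Filled points have an unadjusted p below 0.05 and the dashed line marks 0.21, the median of all tested genes. The filled points are P3H3, P3H4, CRTAP, FKBP9 and PCOLCE, and LOX lies at -0.38.

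LW119 was the highest of the 6 pigs for 7 of the 9 genes (77.8%) and for 29 of the 39 processing genes (74.4%), against 30.6% of all tested genes. After size factors it was the highest for 7 of the 9 genes and 18.7% of all tested genes. Without LW119, 1 of the 39 genes (P3H4) had an unadjusted p below 0.05 in place of 5, and without LW90 it was also 1 (P3H4). Without LW70 the number was 14, without LW88 it was 8, and without LW82 it was 2. Without LW63 it was 5, and LOX among them was lower in S-H. The count thus depended on single pigs of both groups. Over all tested genes, the number that passed the thresholds moved as well, from 174 with all pigs. It was 125 without LW63, 216 without LW119, 86 without LW90, 249 without LW70, 216 without LW88 and 261 without LW82. The share of all tested genes with an unadjusted p below 0.05 is not given for these settings. The counts of the 39 genes in them are therefore not read as a result about these genes.

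The levels of the 9 genes moved together mainly through LW119. On log2(FPKM + 0.1), the 28 pairs of genes without LOX had a Pearson r between 0.09 and 0.94 over the 6 pigs, with a median of 0.71, and 11 pairs were at 0.8 or above. All 8 pairs with LOX were negative, from -0.63 to -0.17. When LW119 was left out, the median of the 28 pairs was 0.04 with 14 negative pairs, and the median of the 8 pairs with LOX was 0.43 with 2 negative pairs. The points of these correlations share libraries and library scaling.

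Marker lists of other cell types differed in where LW119 stood. The summed level of 5 tendon markers was 98.2 FPKM in LW119 against 24.4 to 45.1 FPKM in the other S-H pigs and 20.1 to 48.3 FPKM in S-L, but 97.5 FPKM of it came from THBS4. The tendon transcription factor genes SCX and MKX were lower in LW119 (0.261 and 0.205 FPKM) than in the other S-H pigs. Both lay within the S-L ranges (0.187 to 0.407 FPKM for SCX and 0.0815 to 0.306 FPKM for MKX). COMP was highest in LW119 (0.260 FPKM), at 0.0158 FPKM in LW90 and at 0 in the remaining pigs. TNMD was at 0 in LW119 and in some other pigs. The 5 immune markers summed to 30.02 FPKM in LW119 against 7.62 and 16.7 FPKM in the other S-H pigs and 11.0 to 12.7 FPKM in S-L. The part of these cells in the values of LW119 was not tested.

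The whole list of 9 fibroblast and progenitor markers, led by DCN, summed to 244.2 to 467.5 FPKM in S-H and to 271.8 to 410.5 FPKM in S-L, with overlapping groups, and LW119 (361.1 FPKM) lay below LW63 and the S-L pig LW88 (410.5 FPKM). The pigs stood in the same order by DCN alone as by the whole sum, of which DCN made up the larger part in every pig. Within the list, LW119 was the highest of all pigs for PDGFRA (39.3 FPKM), LUM (34.6), THY1 (30.6) and DPT (15.1). It was below LW63 and LW88 for DCN (201.9 FPKM) and PI16 (23.9). COL15A1 (10.6 FPKM) and CD34 (5.13 FPKM) were lower in LW119 than in the other S-H pigs. The part of fibroblasts in the values of LW119 was not tested. None of the 8 tested genes of the list passed (1.36% of all tested genes). An unadjusted p below 0.05 was found in 1 of them (8.15% of all tested genes), THY1 (log2 fold change 0.84, limma adjusted p = 0.607). TCF21 was at or near 0 in every pig. The 7 adipocyte markers summed to 444.4 to 1293.5 FPKM in S-H and to 254.6 to 376.1 FPKM in S-L. Of the 7, 5 passed, all higher in S-H (1.18% of all tested genes). LW119 had the lowest adipocyte sum of the S-H pigs (444.4 FPKM) and LW63 the highest. Endothelial markers (90.3 to 113.4 FPKM in S-H and 69.2 to 97.5 FPKM in S-L) and mural cell markers (86.8, in LW119, to 152.9 and 79.0 to 129.8 FPKM) overlapped between the groups, and 0 of the 5 genes in either list had an unadjusted p below 0.05. Muscle fibre genes such as CKM, MYH7 and DES, which define the labelled tissue, were present in every pig, and the 5 of 7 that were found had sums of 7874 to 12289 FPKM in S-H and 7654 to 11350 FPKM in S-L.

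To set the processing genes beside their substrate, each was divided by the sum of COL1A1, COL1A2 and COL3A1 in the same pig, a ratio that does not depend on the scaling of the library. LOX reached 4.09%, 3.70% and 1.23% of the collagen sum in S-H and 4.89%, 4.61% and 6.89% in S-L. Every S-H pig was below every S-L pig, with means of 3.01% ± 1.55 and 5.47% ± 1.24 (SD, n = 3 each), and LOX was the only one of the 9 genes whose ratio did not overlap between the groups. Of all tested genes, 9.09% had such a ratio with the S-H pigs below. The ratio was examined after the levels were known and is given without a test.

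The other 8 ratios overlapped. SERPINH1 was at 18.1%, 23.8% and 27.5% of the collagen sum in S-H and at 16.1%, 18.5% and 30.5% in S-L. PLOD2 was at 2.89%, 3.69% and 3.53% in S-H and at 4.91%, 3.45% and 7.11% in S-L. LOXL2 had nearly the same mean ratio in both groups, 3.08% ± 0.523 and 3.07% ± 0.871. PPIB stayed within 3.30% to 4.29% in all 6 pigs, the tightest of the genes that were set against collagen.

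**Figure D5:**
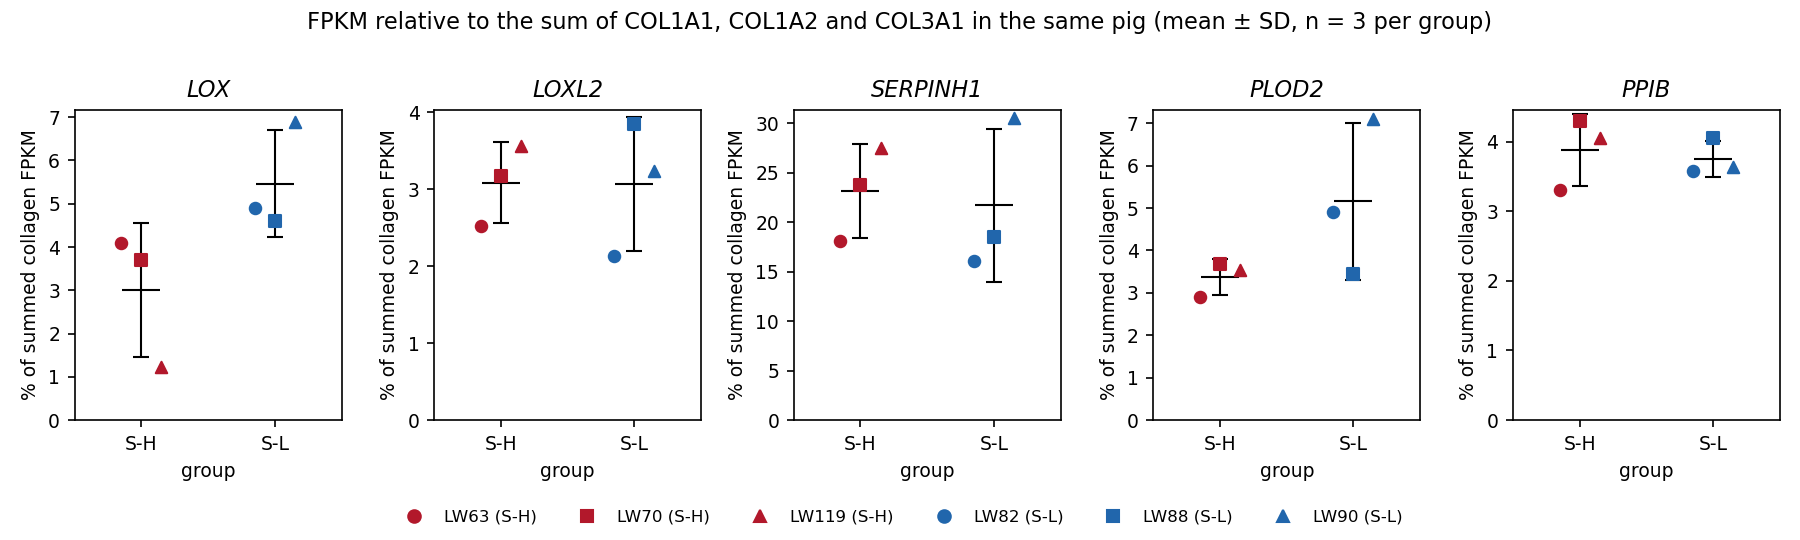
FPKM of 5 processing genes as a percentage of the summed FPKM of COL1A1, COL1A2 and COL3A1 in the same pig (vertical axes, linear), in S-H (red) and S-L (blue) pigs, with 1 symbol per pig and the mean ± SD (n = 3 per group). LOX lies between 1.23% and 4.09% in S-H and between 4.61% and 6.89% in S-L, and the other 4 genes overlap between the groups.

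Genes that bind, degrade or regulate collagen were measured as neighbours of the pathway. Of the 7 fibril-binding matrix genes, 0 had an unadjusted p below 0.05 by limma (8.15% of all tested genes). DCN (decorin) had 327.5, 151.6 and 201.9 FPKM in S-H and 184.1, 308.3 and 199.1 FPKM in S-L (log2 fold change -0.06, SE 0.34, limma adjusted p = 0.966). Of the 6 tested genes of collagen degradation, 0 had an unadjusted p below 0.05. MMP14, a membrane-bound collagenase, had 16.9, 9.01 and 8.32 FPKM in S-H and 9.62, 6.85 and 4.32 FPKM in S-L (0.71, SE 0.36, limma adjusted p = 0.619), and LW63, the pig with the highest LOX, was also the highest here.

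TGF-beta is the best-known inducer of collagen and of LOX. Of the 12 genes of its list, 1 passed the thresholds, and it was lower in S-H (0.188% of all tested genes). CCN2, a matricellular growth factor and a target of TGF-beta and of mechanical load, had 20.3, 13.2 and 25.9 FPKM in S-H and 31.3, 59.9 and 51.4 FPKM in S-L. Every S-H pig was below every S-L pig, with a log2 fold change of -1.26 (SE 0.33, limma adjusted p = 0.535) and of -1.48 with size factors. The log2 fold change was below 0 in 8 of the 12 genes, and the median of the list was -0.19.

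P4HA1, PLOD2 and LOX are known targets of the hypoxia response, of which 9 of 10 other listed genes were found and tested. In this list 1 gene had an unadjusted p below 0.05 (8.15% of all tested genes). EGLN3, an oxygen-sensing prolyl hydroxylase named here for its p, had 14.1, 15.1 and 12.95 FPKM in S-H and 11.6, 8.20 and 6.002 FPKM in S-L (log2 fold change 0.75, SE 0.28, limma adjusted p = 0.579). CA9 had 170.5, 422.3 and 541.6 FPKM in S-H and 215.0, 291.5 and 327.1 FPKM in S-L (0.31, SE 0.41, limma adjusted p = 0.839), with overlapping groups. The CA9 sum holds 1 Ensembl and 3 assembled transcripts. Their shares were not examined, and whether the assembled transcripts carry reads of other genes was not tested. The median of the list was 0.25, close to the median of all tested genes.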

How the data were processed

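Total RNA of 6 LD muscles, 1 library per pig, was sequenced after removal of ribosomal RNA. Per the labels and the methods of the study, the authors aligned the reads with HISAT2 to Sus scrofa 11.1 and assembled transcripts with StringTie. The deposited values are FPKM per transcript and pig, but 21104 Ensembl transcripts without a symbol were deposited by the authors in TPM, as the values show. These were multiplied by 1 factor per pig, from 0.639 to 0.847, to reach the FPKM scale. FPKM summed to between 638536 (LW119) and 846661 (LW82) per library. Whether adipose or connective tissue was trimmed from the RNA samples is not given in the sources used here.

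FPKM was summed over the transcripts of a gene. RefSeq, matched by symbol (14189 genes) or by position (4391 genes, reciprocal overlap of at least 50%), gave 17094 protein-coding genes. S-H and S-L were compared on log2(FPKM + 0.1) by limma (version 3.58.1, R version 4.3.3, variance trend), with Benjamini-Hochberg adjustment over all 12748 genes. The fit was also run on simulated data with independent noise for each gene. These imitate neither an outlying pig nor a shift of a whole library, and the outcome of that run is not reported here. The pigs are separate animals. Other steps used Python 3.11.15, numpy 2.4.6 and pandas 2.3.3. 

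The genes named were the 10 genes, genes of the lists that passed, up to 4 genes of highest mean per list, the LARP6 family, partners, targets and neighbours within 250 kb, and the 5 genes most like LARP6. Some genes under this rule are not reported here. Members and lists were chosen with earlier results of these data known. The list genes MIA2, KLHL12, FKBP11, PCOLCE2, LARP4B, MYH10, CTSK, TIMP2, SLC2A1, MYH1 and MYH2 were not matched. Alternatives were pseudocounts of 1 and 0.01, other minimum levels, size factors, quantile normalization, TPM, limma without a trend, the transcript of highest mean, all annotated genes and each pig left out. No sequences are shown.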

Additional observations from a re-analysis of the deposited data

How the results depend on the processing

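The number of all genes that passed was 174. It was 78 with a pseudocount of 1 and between 117 and 261 in the other settings that kept all pigs or left out 1, except 86 without LW90. Among the 39 collagen-processing genes, 0 passed in each setting except without LW70, where 1 did (PCOLCE), so the range over left-out pigs was 0 to 1. The number with an unadjusted p below 0.05 was 5. It was 3 with size factors, 3 with quantile normalization and 3 for limma without a trend, and 1 to 14 over left-out pigs. The difference of the LARP6 means lay between 1.03 and 1.72 FPKM in all settings on FPKM and was 1.89 on TPM.

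Of 153 values of the 9 genes, 12 changed sign, 141 did not, and none passed the thresholds. With size factors P4HA1 was at -0.12, P4HA2 at -0.030 and PLOD2 at -0.14, and with quantile normalization P4HA1 was at -0.026 and PLOD2 at -0.063. The ranges over left-out pigs were -0.20 to 0.47 for P4HA1, -0.29 to 0.48 for P4HA2, -0.064 to 0.52 for PLOD1 and -0.29 to 0.42 for PLOD2. The causes were not tested. Ensembl transcripts alone, and LARP6 with UACA-209 added (a difference of 1.15 FPKM), were chosen after the data were seen. Assembled transcripts of LARP6 gave no value, since none lies on the gene. No paired analysis was possible because S-H and S-L hold different animals and the labels carry no replicate numbers. With 3 pigs per group, small differences could not be resolved. Without counts, the number of fragments behind the LARP6 values of the S-H pigs is not known, although the paper gives the reads of each library.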
